A study of Mus musculus with 16 samples.

Results

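The genes described here encode the Rab GTPases, the small GTP-binding proteins that give each membrane compartment of the cell its traffic. They were taken as every gene whose symbol is Rab followed by a number and at most a letter and a further number, and 57 of the 18576 genes in the tables met that rule. A Rab is switched on by a guanine nucleotide exchange factor (GEF), recruits effectors such as tethers and motor adaptors while it binds GTP, and is switched off by a GTPase-activating protein (GAP). In phagocytes Rabs of the Rab5 group act on the early endosome and young phagosome, and Rab7 on their maturation and fusion with lysosomes. Rab4 and Rab11 act on the return of receptors to the surface, Rab1, Rab2 and Rab6 between the endoplasmic reticulum (ER) and the Golgi, and Rab3, Rab8 and Rab27 in secretion. Several Rabs are substrates of LRRK2, a kinase linked to Parkinson's disease.

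The libraries came from a mouse model of Parkinson's disease that asked what loss of the scavenger receptor CD163 does to the brain's immune response to α-synuclein. Female and male C57BL/6N mice, either wild type (WT) littermates or carriers of the targeted deletion allele CD163tm1.1(KOMP)Vlcg (CD163KO), received murine α-synuclein as monomers (MONO) or as pre-formed fibrils (PFF) in both striata. Surgery was at 12 weeks of age and the cells were sorted 2 months later. Brain cells were sorted by flow cytometry into Macrophages (CD45 high, CD11b+) and Microglia (CD45 low or intermediate, CD11b+). Every sex, genotype and treatment gave 1 library of either population, 16 in all, with 7 injected mice in each WT group, 5 in the CD163KO groups and 4 in the male CD163KO MONO group. The deletion is in every cell of the mouse, so both populations and all other tissues of a CD163KO mouse lacked the gene. According to the labels, triplicates were used for sequencing, but how animals were combined into each table is not given, so p-values measure the spread between these libraries, which may be partly technical. The macrophage gate could also hold border-associated and infiltrating macrophages, neutrophils and NK cells. The study excluded its male CD163KO MONO samples, so comparisons used the other 7 libraries of each population and the excluded pair was used only where stated.

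Depth ran from 12170686 to 21433841 expected counts in the macrophage libraries and from 8648751 to 18768238 in the microglia libraries. The labelled populations fitted their own markers, beside markers of other cells: the summed FPKM (fragments per kilobase of transcript, scaled to the depth of the library) of 12 microglia markers was 17736 to 43448 in microglia and 956 to 1877 in macrophages, with 0 markers at 0 in any microglia library. Summed FPKM of 12 border-associated macrophage markers was 1991 to 5459 in macrophages and 29.2 to 169.5 in microglia. The 12 neutrophil markers were all above 1 FPKM in all macrophage libraries, at a sum of 22169 to 134671 against 952 to 2732 in microglia. The summed FPKM of 8 choroid plexus markers was 87.1 to 12713 in macrophages and 266 to 2541 in microglia, and that of 6 pituitary markers 0 to 309 and 0.14 to 158. Cd163 had 748 to 5275 counts in the 4 WT macrophage libraries and at most 1 in the 4 CD163KO ones. In microglia, where it was low, Cd163 had 46, 101, 0 and 1 counts in the WT libraries and 23, 11, 10 and 5 in the CD163KO libraries, so it checked the genotype labels in macrophages only. The female CD163KO MONO microglia library held 799 counts of Y-linked genes, against at most 2 in the other 7 female libraries.

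The libraries fell into 2 kinds that crossed the populations. In 8 of them the 10 most abundant transcripts took 38.0% to 60.4% of all counts (high-share libraries: 6 macrophage libraries, plus the male WT PFF and male CD163KO MONO microglia). In the other 8 they took 13.4% to 16.1% (low-share libraries: the male WT PFF and male CD163KO MONO macrophages, plus 6 microglia libraries). The study used mice of 2 batches, but the sources used here do not assign libraries to them, and whether the kinds follow the batches was not tested. The mean transcript length weighted by counts was 1549 to 2063 bases in the first kind and 2522 to 2964 bases in the second. The summed FPKM of the 57 Rabs was 519 to 1161 in the high-share libraries and 1288 to 1807 in the low-share ones, so a Rab's level moved with the kind of library as well as with the population. The male WT PFF macrophage library listed 9524 transcripts and had 25 Rabs at 0 counts, more than any other library.

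Of the Rabs with a high level in both populations, the late endosomal Rab7 had the highest median. Rab7 had a median of 135 FPKM over the 7 macrophage libraries and 149 over the 7 microglia libraries. The next in macrophages were Rab4b (105), Rab24 (87.2), Rab8a (77.6) and Rab11a (53.5), and in microglia Rab14 (127), Rab1b (91.0), Rab4b (86.2) and Rab24 (77.7). Neighbours in these orders overlapped between libraries: Rab4b in macrophages spanned 17.3 to 146 FPKM, and Rab14 in microglia spanned 42.8 to 163 FPKM. The 5 leading Rabs held a median of 53.5% of all Rab FPKM in macrophages (41.3% to 58.2%) and 40.4% in microglia (33.6% to 42.4%). In all, 24 Rabs were at 1 FPKM or more in all 14 libraries and 7 were below it in all 14.

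**Figure D1:**
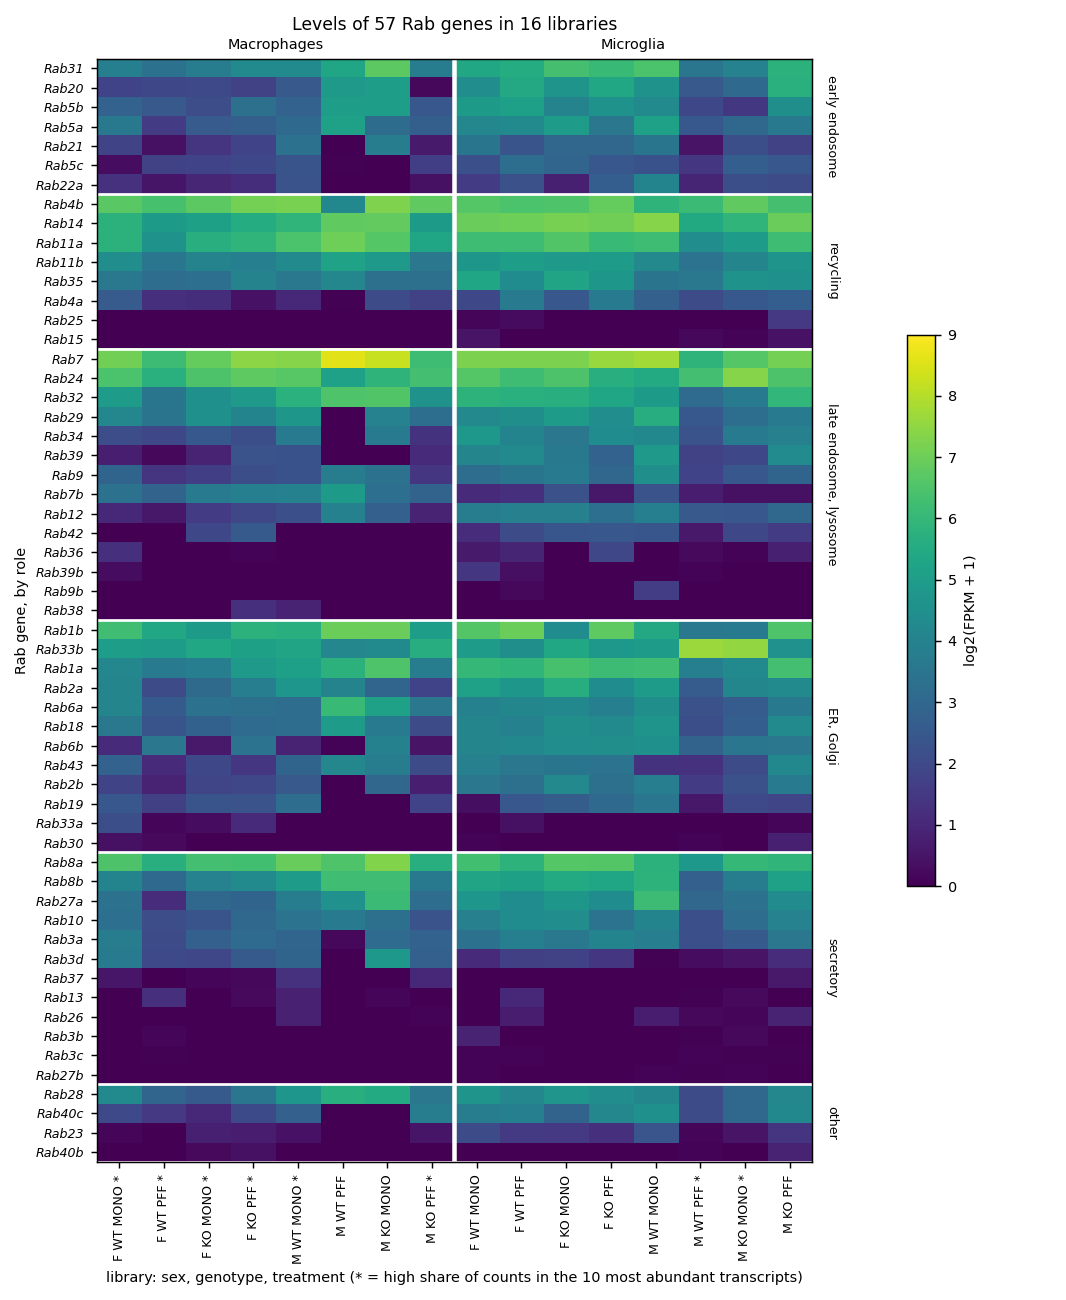
Each row is 1 of 57 Rab genes, grouped by role, and each column 1 of 16 libraries, named by sex (F, M), genotype (WT, or KO for CD163KO) and treatment. Colour gives log2(FPKM + 1) and asterisks mark the high-share libraries; Rab7 is bright in every column, and the male WT PFF macrophage column has 25 Rabs at 0 counts.

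By role, late endosomal and lysosomal Rabs (14 genes) held a median of 33.0% of Rab FPKM in macrophages and 26.7% in microglia. Recycling Rabs (8 genes) held 27.9% and 26.0%. ER and Golgi Rabs (12 genes) held 18% and 21.5%, and secretory Rabs (12 genes) held 13.2% and 12.0%. Early endosomal Rabs (7 genes) held 4.27% in macrophages, with a range of 3.88% to 8.40%, and 11.3% in microglia, with a range of 3.97% to 13.1%. The lowest early endosomal share in microglia came from the high-share male WT PFF library and the highest in macrophages from the low-share male WT PFF library, so this share too moved with the kind of library.

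The first comparison set microglia against macrophages within each of the 7 combinations of sex, genotype and treatment. In edgeR's quasi-likelihood test with TMM scaling factors, 9 of the 51 Rabs tested had a lower relative level in microglia and 0 a higher one, at a Benjamini-Hochberg adjusted p of at most 0.05. Over all 13700 genes tested, 11.8% were called lower and 6.77% higher, so the share of Rabs called lower stood near that of all genes. A log2 difference of -1 or less was reached by 8 of the 9, and by 10.7% of all genes together with the adjusted p. The 9 were Rab7b, Rab7 and Rab32 of the late endosome and lysosome, Rab11a and Rab11b of recycling, Rab1b and Rab6a of the ER and Golgi, Rab8a of secretion, and Rab28. The median log2 difference was -0.30 over the Rabs and 0.37 over all genes. The other 6 Rabs (Rab25, Rab27b, Rab3b, Rab3c, Rab40b and Rab9b) did not pass the filter on low counts.

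For 7 of the 9 called Rabs the direction depended on the scaling. Without scaling factors 13 Rabs were called higher and 1 lower (41.8% and 4.42% of all genes), and limma on log2(FPKM + 1) called 17 higher and 2 lower (47.3% and 5.7%). Without scaling the median of all genes itself moved to 1.96, and that of the Rabs to 1.27. Within the 8 high-share libraries and within the 8 low-share libraries, all 9 Rabs had a negative log2 difference, both with TMM factors and without. These fits were not matched by condition, and each rests on an arm of 2 male libraries, WT PFF and the excluded CD163KO MONO, which were the microglia in the high-share fit and the macrophages in the low-share fit. With TMM factors, 6 of them (Rab7b, Rab8a, Rab11a, Rab28, Rab32 and Rab6a) were called lower within both kinds of library, where 10.2% and 7.99% of all genes were called lower. Without scaling factors 2 of the 9 (Rab1b and Rab7b) were called lower within high-share libraries and 4 (Rab32, Rab6a, Rab7 and Rab7b) within low-share ones, beside 6.58% and 6.05% of all genes, which leaves Rab7b as the one Rab of the 9 called in both. Without the male WT PFF pair, the only one that set a low-share macrophage library against a high-share microglia library, 19 Rabs were called lower and 2 higher (19.3% and 16.4% of all genes). Rab7b was the only Rab called lower under all 22 alternatives that were run. In bulk samples a smaller share of expressing cells and less RNA per cell cannot be told apart, and the part of the neutrophil signal in the macrophage gate in these differences was not tested.

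**Figure D2:**
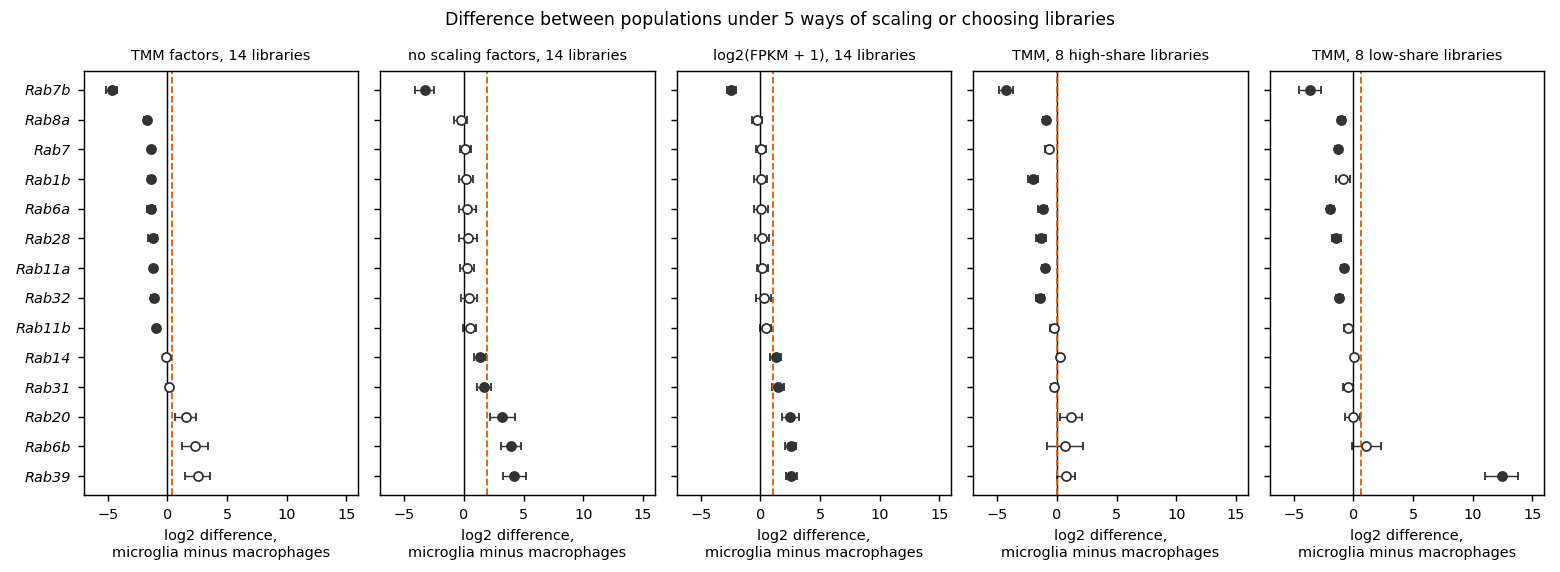
Log2 differences of microglia minus macrophages (horizontal axis, with SE bars) for the 9 Rabs called lower and for Rab14, Rab31, Rab20, Rab6b and Rab39, in 5 panels that differ in scaling or in the libraries used. Filled points passed an adjusted p of at most 0.05 and the dashed line is the median of all genes tested; Rab7b is filled and below 0 in all 5 panels, while Rab7 and Rab11a lie above 0 where no scaling factors or FPKM were used.

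In the sentences that follow, FPKM values of the 7 libraries of a population are given in the order female WT MONO, female WT PFF, female CD163KO MONO, female CD163KO PFF, male WT MONO, male WT PFF and male CD163KO PFF. The sixth macrophage value is therefore the low-share macrophage library, and the sixth microglia value the high-share microglia library.

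Among the late endosomal and lysosomal Rabs, 3 of 13 tested were called lower in microglia and 0 higher, beside 11.8% and 6.77% of all genes. Rab7b (chr1:131688681-131715443 on GRCm38.p6), which acts in transport from late endosomes to the trans-Golgi network, was at 9.4, 6.35, 12.2, 13.8, 14.4, 28.9 and 6.21 FPKM in macrophages. In microglia Rab7b was at 1.13, 1.39, 3.69, 0.49, 3.9, 0.65 and 0.33 FPKM. The 2 ranges did not overlap, and microglia were lower in 7 of 7 pairs and also in the excluded pair, at 0.32 against 8.85 FPKM. Rab7b was the only one of 45 Rabs whose FPKM ranges were apart, whereas 2.61% of 11807 genes had ranges apart with microglia lower and 7.2% with microglia higher. Its log2 difference was -4.68 ± 0.49 (SE, n = 7 pairs; adjusted p = 4.94e-05 by edgeR), and it ran from -4.91 to -2.43 over the 22 alternatives. Within high-share and low-share libraries it was -4.27 and -3.63. Among macrophages, the 4 CD163KO libraries lay at 6.21 to 13.8 FPKM, inside the 6.35 to 28.9 FPKM of the 4 WT libraries apart from the lowest.

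Rab7, which directs late endosomes and phagosomes to lysosomes, was at 135, 71.9, 115, 174, 165, 384 and 73.1 FPKM in macrophages. In microglia Rab7 was at 149.7, 149, 149, 196, 215, 56.7 and 137 FPKM. The groups overlapped, and the highest macrophage value and lowest microglia value both came from the male WT PFF pair. After TMM scaling the log2 difference was -1.36 ± 0.19 (adjusted p = 0.000394), but on log2(FPKM + 1) it was 0.04 and microglia were higher in 6 of 7 pairs. Within high-share and low-share libraries Rab7 was at -0.70 and -1.30.

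Rab32, which acts in lysosome-related organelles and binds LRRK2, was at 30.5, 10.3, 22.2, 28, 52.8, 90.4 and 22.9 FPKM in macrophages. In microglia Rab32 was at 55.9, 51.9, 49, 39.3, 29.3, 7.8 and 61.4 FPKM. Its groups overlapped, and its log2 difference after TMM scaling was -1.11 ± 0.26 (adjusted p = 0.0100). On log2(FPKM + 1) the sign turned, to 0.26. Within high-share and low-share libraries it was -1.41 and -1.17.

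Among the members of this group that were not called, Rab39, a Rab of phagosome acidification, spanned 0 to 3.95 FPKM in macrophages (median 0.86) and 2.37 to 27.6 FPKM in microglia (median 16.1). Its log2 difference of 2.53 ± 1.06 missed the threshold after TMM scaling (adjusted p = 0.127), although it was positive under all 22 alternatives and called higher under 8. Rab24, a Rab linked to autophagy, spanned 34.4 to 109 FPKM in macrophages and 44.3 to 97.8 FPKM in microglia. Rab42 had 0 counts in 5 of 7 macrophage libraries and 7 to 52 counts in the microglia libraries, with a log2 difference of 4.22 ± 2.16 (adjusted p = 0.204). A fitted difference against libraries at 0 counts is no bound on the size of the change.

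The promoters of Rab7 and Rab8a are shown because these were the Rabs with the highest macrophage medians among the 9 called lower. Each window runs from 250 bases before to 50 bases after the start of a RefSeq transcript on GRCm38.p6, the same assembly as the mm10 build named in the submitters' processing notes. The Rab7 window shown (chr6:88045221-88045520, minus strand) was 61% G or C with 18 CpG dinucleotides, and the Rab8a window (chr8:72160950-72161249, plus strand) was 64% G or C with 23. Another Rab7 window, not shown (chr6:88044968-88045267, minus strand), was 73.7% G or C with 38. Capitals mark the match to the TATA box letters TATAAA on the opposite strand. The Rab7 window that is not shown held no such match.
Rab7: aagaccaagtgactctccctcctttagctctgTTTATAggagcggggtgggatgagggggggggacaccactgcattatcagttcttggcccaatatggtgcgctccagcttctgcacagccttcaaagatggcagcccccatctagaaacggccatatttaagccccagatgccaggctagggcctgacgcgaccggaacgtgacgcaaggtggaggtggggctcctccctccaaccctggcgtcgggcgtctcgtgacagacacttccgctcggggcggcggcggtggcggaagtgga
Rab8a: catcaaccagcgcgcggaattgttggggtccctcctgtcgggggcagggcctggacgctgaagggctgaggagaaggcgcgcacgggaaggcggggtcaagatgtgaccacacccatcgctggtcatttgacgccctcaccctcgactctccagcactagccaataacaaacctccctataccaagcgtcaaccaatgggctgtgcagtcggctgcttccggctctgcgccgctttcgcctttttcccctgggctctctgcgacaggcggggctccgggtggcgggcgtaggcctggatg

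A promoter window was on hand for 47 Rabs, among them 8 of the 9 called lower. The TATA box letters TATAAA, searched on both strands, were in a window of 4 Rabs (Rab7, Rab39b, Rab3b and Rab42) and of 15.7% of the 27025 genes with a window. The letters GAGGAAGT, a box bound by the myeloid factor PU.1, were in a window of 2 Rabs (Rab2b and Rab32) and of 3.69% of all genes. The E-box letters CACGTG, the core of the element bound by the lysosomal regulator TFEB, were in a window of 6 Rabs (Rab20, Rab21, Rab23, Rab24, Rab27a and Rab5a) and of 8.09% of all genes. These motifs do not overlap each other in their letters, and a match describes the sequence only.

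Of the recycling Rabs, 2 of 7 tested were called lower in microglia and 0 higher (11.8% and 6.77% of all genes). Rab11a, which returns cargo from the recycling endosome, was at 53.5, 22.9, 49.5, 57.7, 87.2, 127 and 38 FPKM in macrophages. In microglia it was at 72.2, 73.5, 92.1, 67.4, 73.5, 20.1 and 72 FPKM. The groups overlapped, and only 2 of 7 pairs had microglia lower. After TMM scaling its log2 difference was -1.21 ± 0.17 (adjusted p = 0.000429), on log2(FPKM + 1) it was 0.17, and within high-share and low-share libraries it was -1.0 and -0.82.

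Its close relative Rab11b was at 20.2, 10.4, 15.4, 13.9, 18.2, 35.3 and 10.8 FPKM in macrophages. In microglia Rab11b was at 26.1, 31.9, 28.3, 29.7, 17.6, 9.72 and 24 FPKM. Its log2 difference after TMM scaling was -0.93 ± 0.20 (adjusted p = 0.00581), on log2(FPKM + 1) it was 0.43, and within the 2 kinds of library it was -0.27 and -0.49. None of the expected counts of Rab11b was a whole number, so its reads were shared with other transcripts and its values are uncertain.

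Rab14, of the early and recycling endosome, was at 54.1, 28.9, 33.3, 47.1, 58.2, 112 and 28.8 FPKM in macrophages. In microglia Rab14 was at 121, 127, 141, 131, 163, 42.8 and 123 FPKM. As deposited it was higher in microglia in 6 of 7 pairs, whereas its log2 difference was -0.09 ± 0.18 after TMM scaling (adjusted p = 0.765) and 0.27 and 0.02 within the 2 kinds of library. The low-share macrophage library and the high-share microglia library broke the order of the other pairs.

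Rab4b, of fast recycling, was at 103, 82, 105, 138, 146, 17.3 and 110.4 FPKM in macrophages. In microglia Rab4b was at 98.2, 86.2, 90.4, 116, 57.3, 68.7 and 79.5 FPKM. Here the male WT PFF macrophage library was the lowest of the 14, and the log2 difference of -1.80 ± 0.67 did not pass the test (adjusted p = 0.0976).

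**Figure D3:**
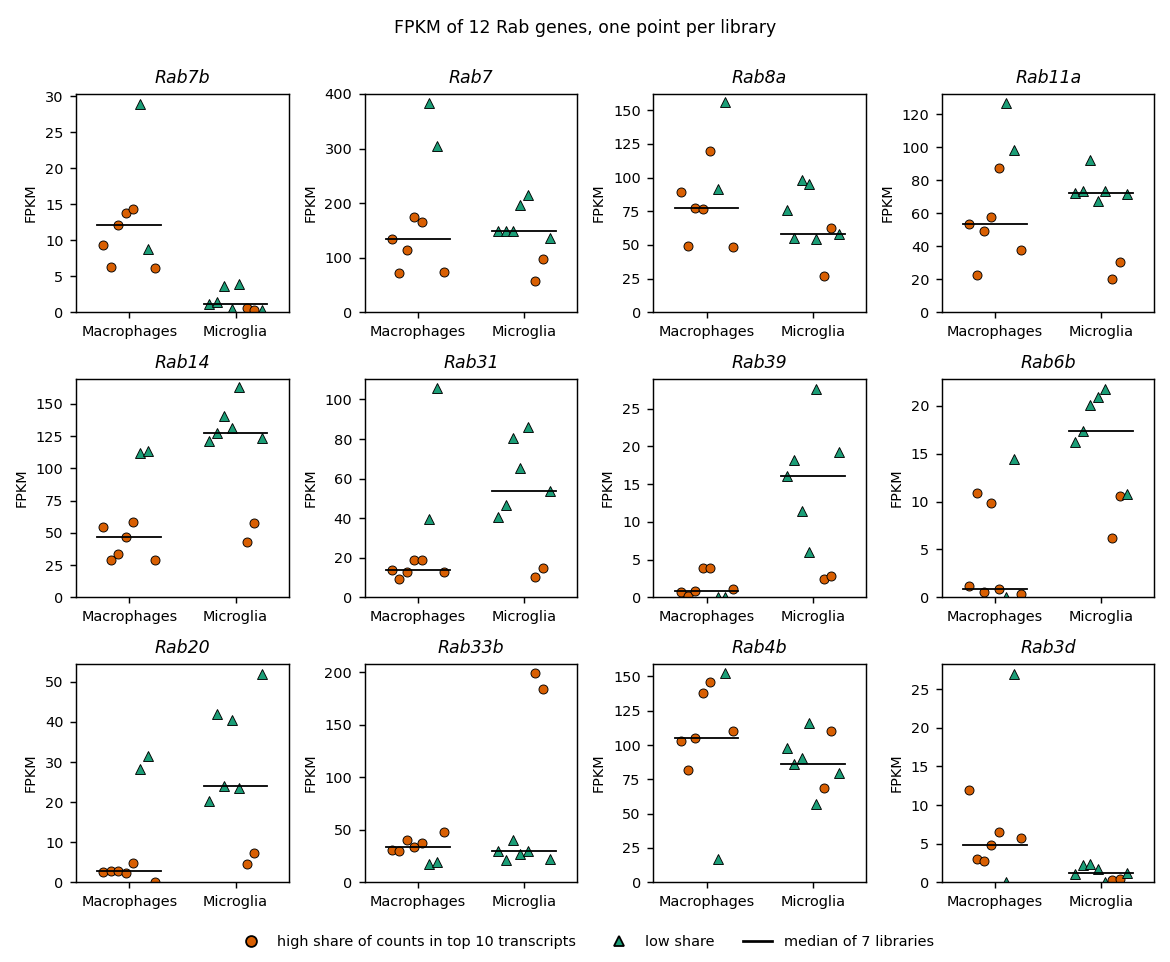
FPKM (linear vertical axis from 0) of 12 Rabs, with 1 point for each of the 8 libraries of a population; circles are high-share libraries, triangles are low-share libraries, and the line is the median of 7 libraries without male CD163KO MONO. The macrophage and microglia points are apart for Rab7b alone, and the 2 microglia circles of Rab33b stand at 199 and 184 FPKM above the triangles.

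Of the ER and Golgi Rabs, 2 of 12 tested were called lower in microglia and 0 higher (11.8% and 6.77% of all genes). Rab1b, which acts in transport from the ER to the Golgi, was at 74.6, 41.1, 28.9, 54.2, 49.9, 127 and 31.4 FPKM in macrophages. In microglia it was at 95.5, 124, 19.5, 107, 42, 11.2 and 91 FPKM. The microglia values fell into 4 libraries at 91 FPKM or more and 3 at 42 FPKM or less, which overlapped the macrophages on both sides. Its log2 difference was -1.35 ± 0.26 (adjusted p = 0.00336) after TMM scaling, 0.03 on log2(FPKM + 1), and -2.00 and -0.86 within high-share and low-share libraries.

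Rab6a, of Golgi traffic, was at 16.2, 4.86, 9.45, 8.97, 8.4, 67.8 and 10.9 FPKM in macrophages. In microglia Rab6a was at 14.5, 16.3, 17.6, 13.9, 21.2, 3.65 and 11.5 FPKM. Apart from the male WT PFF pair, the libraries of both populations lay between 4.86 and 21.2 FPKM. Its log2 difference was -1.35 ± 0.34 (adjusted p = 0.0153) after TMM scaling, 0.03 on log2(FPKM + 1), and -1.20 and -1.93 within the 2 kinds of library.

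The paralog Rab6b, known for its expression in neurons, spanned 0.06 to 10.9 FPKM in macrophages (median 0.82) and 6.23 to 21.8 FPKM in microglia (median 17.4). Its log2 difference of 2.32 ± 1.08 did not pass the test (adjusted p = 0.175), although its sign was the same under all 22 alternatives. The summed FPKM of 10 neuronal markers was 1.32 to 7.45 in microglia and 1.36 to 6.29 in macrophages. Rab33b, a Golgi and autophagy Rab, was at 199 and 184 FPKM in the 2 high-share microglia libraries and at 21.5 to 40.6 FPKM in the 6 low-share ones. Only 6.25% of its expected counts were whole numbers, so part of its reads was shared with other transcripts.

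Of the secretory Rabs, 1 of 9 tested was called lower in microglia and 0 higher, close to the 11.8% and 6.77% of all genes. Rab8a, which acts in exocytosis and is phosphorylated by LRRK2, was at 89.3, 49, 77.6, 76.6, 120.0, 91.4 and 48.6 FPKM in macrophages. In microglia Rab8a was at 75.8, 55, 98.1, 95.1, 54.3, 26.7 and 57.8 FPKM. The groups overlapped, and 3 of 7 pairs had microglia lower as deposited. Its log2 difference was -1.70 ± 0.28 (adjusted p = 0.00100) after TMM scaling and -0.90 and -1.0 within the 2 kinds of library, and it was negative under all 22 alternatives (-1.94 to -0.28) and called under 16.

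Rab3d, a Rab of secretory granules, spanned 0 to 12.0 FPKM in macrophages (median 4.88) and 0.03 to 2.36 FPKM in microglia (median 1.21). Its log2 difference was -3.51 ± 1.34 (adjusted p = 0.0986), negative under all 22 alternatives and called under 8. Rab27a, of lysosome-related and secretory granules, spanned 1.2 to 22.7 FPKM in macrophages and 6.88 to 71.8 FPKM in microglia, with a log2 difference of 0.16 ± 0.34 (adjusted p = 0.778). Neutrophils, which release granules, are among the cells of the macrophage gate, and the part of their markers in these levels was not tested.

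Rab28, a Rab of the cilium, was the one called of 3 tested in the remaining group, where it was lower in microglia (11.8% of all genes lower, 6.77% higher). It was at 18.9, 6.67, 4.92, 10.5, 25.7, 48.9 and 10.8 FPKM in macrophages. In microglia Rab28 was at 24.2, 17.1, 24.9, 20.1, 16.5, 3.31 and 17.1 FPKM. The groups overlapped. Its log2 difference was -1.24 ± 0.38 (adjusted p = 0.0423) after TMM scaling, 0.15 on log2(FPKM + 1), and -1.31 and -1.45 within the 2 kinds of library. Rab28 was called lower under 9 of 22 alternatives.

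None of the 7 early endosomal Rabs tested was called, beside 11.8% of all genes lower and 6.77% higher, and their median log2 difference was 0.14 against 0.37 over all genes. Rab31, of transport to endosomes, was the highest of them in both populations, at 13.6, 9.42, 12.8, 18.9, 19, 39.6 and 12.7 FPKM in macrophages. In microglia Rab31 was at 40.8, 46.5, 80.4, 65.5, 85.8, 10.5 and 53.9 FPKM. As deposited 6 of 7 pairs had microglia higher, but its log2 difference was 0.14 ± 0.21 after TMM scaling (adjusted p = 0.695) and -0.22 and -0.46 within the 2 kinds of library. Rab20, of phagosome maturation, spanned 0.14 to 28.2 FPKM in macrophages and 4.65 to 52.0 FPKM in microglia (1.55 ± 0.89, adjusted p = 0.255). Rab5a and Rab5b, the core Rabs of the early endosome, had macrophage medians of 5.63 and 6.03 FPKM and microglia medians of 16.7 and 21.5 FPKM, with log2 differences of -0.30 ± 0.41 and -0.09 ± 0.34 after TMM scaling.

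Some Rabs had values for more than 1 transcript isoform. For Rab7b, the isoform NM_001311096 held a median of 40.0% of the gene's FPKM over 7 macrophage libraries and 14.2% over the 4 microglia libraries in which Rab7b was at 1 FPKM or more, and its ranges of 32.9% to 83.7% and 0% to 30.2% lay apart. For Rab6a, NM_024287 held a median of 70.6% in macrophages and 56.0% in microglia with overlapping ranges. Only 28% of the expected counts of Rab7b and 20% of those of Rab6a were whole numbers, so reads were shared between transcripts. Rab7b had 44, 99, 267 and 150 counts in those 4 microglia libraries. The isoform shares are estimates of RSEM and were not tested.

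The proteins that act on Rabs were read from lists of GEFs, GAPs, effectors and proteins of prenylation. Of 34 GEFs, 6 were called higher in microglia and 0 lower, beside 6.77% higher and 11.8% lower of all genes, with a median log2 difference of 0.92 against 0.37 over all genes. Hps4, a subunit of the exchange factor of Rab32 and Rab38, was at 4.03, 1.46, 1.67, 1.65, 2.62, 0.02 and 4.01 FPKM in macrophages and at 85.8, 89.4, 53.6, 65.5, 67.4, 18.2 and 95.8 FPKM in microglia. Its groups did not overlap, and its log2 difference was 3.58 ± 0.78 (adjusted p = 0.00950), called higher under 20 of 22 alternatives. Dennd4a, an exchange factor of Rab10, was at 0.79, 0.5, 0.72, 1, 1.3, 13.1 and 0.75 FPKM in macrophages and at 19.2, 16.2, 13.8, 16.9, 19.3, 2.14 and 12.5 FPKM in microglia. Its groups overlapped through the male WT PFF pair, and its log2 difference was 2.04 ± 0.45 (adjusted p = 0.00754). The excluded pair had the reverse order, at 9.07 FPKM in macrophages and 3.9 FPKM in microglia. Sbf2, a protein with an exchange-factor (DENN) domain, was at 1.65, 0.72, 0.72, 1.12, 3.33, 0.11 and 0.77 FPKM in macrophages and at 8.65, 9.48, 10.6, 9.95, 16.7, 1.44 and 8.68 FPKM in microglia, a log2 difference of 1.68 ± 0.53 (adjusted p = 0.0462) that was called under 9 of 22 alternatives. In the excluded pair Sbf2 too was in the reverse order, at 4.64 and 3.14 FPKM.

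Of 31 GAPs tested, 6 were called higher in microglia and 1 lower (6.77% and 11.8% of all genes), with a median log2 difference of 0.57. Tbc1d10c, a GAP of blood cells, was at 34.5, 5.01, 15, 6.5, 9.83, 7.41 and 16.4 FPKM in macrophages and at 2.93, 3.57, 0, 0.17, 4.7, 0.4 and 0.93 FPKM in microglia. Its groups did not overlap, and its log2 difference of -4.95 ± 1.11 (adjusted p = 0.00826) was called lower under 20 of 22 alternatives. Tbc1d16, a GAP of Rab4, was at 0.26, 0.11, 0.06, 0.63, 0.04, 0.02 and 0.09 FPKM in macrophages and at 8.49, 3.84, 4.97, 3.87, 7.17, 1.78 and 5.77 FPKM in microglia. Its groups did not overlap either, and its log2 difference of 4.05 ± 0.96 (adjusted p = 0.0113) was called higher under all 22 alternatives. Tbc1d9, a protein with a GAP (TBC) domain, was at 0.31, 0.43, 0.38, 0.9, 0.03, 2.04 and 0.06 FPKM in macrophages and at 10.6, 10.2, 11.7, 5.21, 9.92, 0.92 and 9.25 FPKM in microglia, a log2 difference of 2.94 ± 0.89 (adjusted p = 0.0393). Its groups overlapped through the male WT PFF pair, and it was called higher under 11 of 22 alternatives.

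Of 37 effectors tested, 2 were called higher in microglia and 5 lower, near the shares of 6.77% and 11.8% of all genes, with a median log2 difference of 0.30, and of 8 proteins of prenylation and Rab recycling 0 were called. Bicd2, a dynein adaptor bound by Rab6, was at 2.92, 0.41, 0.77, 1.9, 1.27, 1.04 and 1.08 FPKM in macrophages and at 24.3, 21.3, 15.9, 20.8, 23.4, 4.68 and 20.9 FPKM in microglia. Its groups did not overlap, and its log2 difference was 2.49 ± 0.37 (adjusted p = 0.000562). The excluded pair had the reverse order, at 17.6 FPKM in macrophages and 9.67 FPKM in microglia. Lrrk2 was at 0.96, 0.05, 0.51, 0.44, 0.44, 2.64 and 0.41 FPKM in macrophages and at 0, 0.2, 0, 0, 0.07, 0 and 0.21 FPKM in microglia, with 8 to 398 and 0 to 28 counts. Its log2 difference of -6.35 ± 1.89 (adjusted p = 0.0364) depends on how counts of 0 are handled and is no bound. The groups of Lrrk2 overlapped, and it was called lower under 14 of 20 alternatives. Rab11fip1, which binds Rab11, was at 1.41, 0.41, 0.57, 0.6, 0.63, 8.55 and 1.36 FPKM in macrophages and at 0.61, 0.7, 0.36, 0.19, 0.2, 1.04 and 0.14 FPKM in microglia. Its groups overlapped. Its log2 difference of -2.93 ± 0.74 (adjusted p = 0.0163) was called lower under 13 of 22 alternatives and turned positive under 2. Among the 12 tested Rabs that LRRK2 can phosphorylate, 1 was called lower in microglia (Rab8a) and 0 higher, near the 11.8% and 6.77% of all genes, and their median log2 difference was -0.49 against 0.37 over all genes. The part of the neutrophil markers in the Tbc1d10c, Lrrk2 and Rab11fip1 levels was not tested.

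The second set of comparisons asked whether PFF against MONO, CD163KO against WT, or males against females moved any Rab. With 1 library for each condition, each factor was tested over the 7 libraries of a population with the other factors as terms, so the libraries of other conditions served as the spread. No Rab was called in any of these 6 tests, nor in the 2 tests of whether the PFF or CD163KO difference differed between the populations. The genes called over the whole tables were 0 (0%) for PFF against MONO in each population and for CD163KO against WT in microglia, and 1 (0.00834%) for CD163KO against WT in macrophages. Between males and females it was 1 (0.00834%) in macrophages and 0 in microglia, and for the differences between the populations it was 1 (0.0073%) for PFF and 0 for CD163KO. At an unadjusted p under 0.05 there were 4 Rab results in all, and DESeq2 also called 0 Rabs in each test. The median SE of a Rab's log2 difference was 0.79 in macrophages and 0.47 in microglia for PFF against MONO, and 0.77 and 0.47 for CD163KO against WT. Changes of the size of those errors could not be detected with these libraries, and on simulated data most larger changes were missed too, so the counts of 0 do not show that the Rabs did not change.

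For PFF against MONO in macrophages, the smallest p was that of Rab5b of the early endosome, at 6.16, 3.4 and 6.03 FPKM in the MONO libraries and 4.74, 9.12, 30.9 and 4.49 FPKM in the PFF libraries. The 30.9 FPKM came from the low-share male WT PFF library, and the excluded MONO library, also low-share, held 31.8 FPKM. The groups overlapped, and the log2 difference of Rab5b was 1.12 ± 0.52 (edgeR adjusted p = 1). The next were Rab1b (0.56 ± 0.33) and Rab6b (2.29 ± 1.62). In microglia the smallest p was that of Rab1b, at 95.5, 19.5 and 42 FPKM in the MONO libraries and 124, 107, 11.2 and 91 FPKM in the PFF libraries. Of the 4 PFF libraries 2 lay above every MONO library, and the high-share male WT PFF library lay below all of them. The log2 difference of Rab1b was 1.23 ± 0.50 (edgeR adjusted p = 0.766), with an unadjusted value under 0.05. Rab27a (-0.72 ± 0.32) and Rab5a (-0.78 ± 0.38) followed in microglia, where Rab27a was at 25.4, 26.1 and 71.8 FPKM in MONO and 19.7, 20.0, 6.88 and 19 FPKM in PFF libraries, and Rab5a at 16.7, 29.5 and 34.6 FPKM in MONO and 18.3, 10.9, 4.54 and 11.5 FPKM in PFF libraries. PFF libraries lay below all MONO libraries for 3 of 42 Rabs (Rab27a, Rab21 and Rab2a) and for 8.13% of 11116 genes. The excluded MONO library lay among the PFF values for all 3, at 9.45 FPKM of Rab27a, 3.45 of Rab21 and 16.5 of Rab2a.

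For CD163KO against WT in macrophages, Rab23 had 40, 31 and 39 counts in the CD163KO libraries and 6, 1, 30 and 0 in the WT libraries (log2 difference 4.63 ± 2.43, adjusted p = 1 by edgeR). The excluded male CD163KO MONO library had 0 counts of Rab23. Rab42 had 24 and 39 counts in the female CD163KO macrophages and 0 in the male CD163KO PFF and all 4 WT libraries. Rab24 was at 89.5, 109 and 78 FPKM in CD163KO and 87.2, 52.1, 100.1 and 34.4 FPKM in WT macrophages (0.89 ± 0.53). The 34.4 FPKM came from the low-share male WT PFF library. The excluded CD163KO library, also low-share, held 57.5 FPKM, among the WT values. In microglia Rab39b, a neuronal Rab tied to familial parkinsonism, had 49, 16, 0 and 4 counts in WT and 0, 0 and 1 in CD163KO libraries (-5.53 ± 3.16, adjusted p = 1.0). Rab31 and Rab1a followed with 0.43 ± 0.32 and 0.34 ± 0.26. These low counts allow no statement about Rab23, Rab42 or Rab39b beyond the counts themselves.

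Between males and females, Rab27a in microglia had the one unadjusted p under 0.05, at 71.8, 6.88 and 19 FPKM in males and 25.4, 19.7, 26.1 and 20.0 FPKM in females (0.75 ± 0.33, edgeR adjusted p = 1.0). The male range enclosed the female one. In macrophages Rab6b was at 0.82, 0.06 and 0.38 FPKM in males and 1.17, 10.9, 0.55 and 9.85 FPKM in females (-3.37 ± 1.52, adjusted p = 1.0), although the excluded male CD163KO MONO library held 14.4 FPKM. Rab33a had 0 counts in the males and 55, 2, 3 and 16 in the females. For the difference in the CD163KO effect between the populations, Rab42 had the smallest p (-6.46 ± 2.80, edgeR adjusted p = 1), and for the PFF effect Rab26 (8.03 ± 4.52), Rab7b (-1.60 ± 0.95) and Rab31 (-0.75 ± 0.44) came first.

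Females had all 4 genotype and treatment libraries of a population in 1 kind of library, so their values are set side by side, with no test and a log2(FPKM + 1) difference of 1 as the limit. In WT macrophages 17 of 41 Rabs were lower by that limit in PFF than in MONO and 3 higher, where 40.4% of all genes were lower and 1.17% higher. After TMM scaling the counts were 7 lower and 5 higher (8.45% and 6.93% of all genes), so most of the deposited difference was shared by all genes. In CD163KO macrophages 4 of 43 Rabs were higher and 0 lower (17.9% and 3.93%). In WT microglia 5 of 44 were higher and 2 lower (7.98% and 11.5%), or 4 and 1 after scaling (7.77% and 8.95%), and in CD163KO microglia 5 of 43 were higher and 3 lower (11.6% and 9.26%).

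Rab6b was past the limit in both genotypes of female macrophages. It went from 1.17 FPKM (76 counts) in MONO to 10.9 FPKM (1106 counts) in PFF in WT, and from 0.55 FPKM (32 counts) to 9.85 FPKM (562 counts) in CD163KO. In WT males it was at 0.82 FPKM in MONO and 0.06 FPKM in PFF, and in CD163KO males at 14.4 FPKM in the excluded MONO library and 0.38 FPKM in PFF. The male values ran the other way, but each male pair set a high-share library against a low-share one. The PFF library was the low-share one in WT males and the high-share one in CD163KO males. The part of sex and of the kind of library in these values was not tested. The neuronal marker sum was 6.29 FPKM in the female WT MONO macrophages and 2.48 FPKM in the PFF ones, and 2.81 and 2.89 FPKM in the CD163KO ones. Markers of other tissue moved between these libraries too: the sum of 8 choroid plexus markers was 12713 FPKM in WT MONO, 2202 in WT PFF, 162 in CD163KO MONO and 4427 in CD163KO PFF, and that of 6 pituitary markers was 16.8, 309, 3.42 and 5.51 FPKM. Each of these sums is the value of 1 library. The part of these markers in the Rab6b values was not tested.

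Rab27a in female WT macrophages was at 9.4 FPKM in MONO and 1.2 FPKM in PFF, a difference of -2.24 as deposited and -1.49 after TMM scaling. In CD163KO it was at 7.15 and 6.41 FPKM, a difference of -0.14. The summed neutrophil markers were 121242 FPKM in the WT MONO library and 22169 FPKM in the WT PFF library, and 98717 and 32920 FPKM in the CD163KO pair. Their part in the Rab27a values, and that of the choroid plexus and pituitary markers, was not tested.

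In female microglia, Rab4a was at 2.85 FPKM in MONO and 11.9 FPKM in PFF in WT, and at 4.39 and 11.8 FPKM in CD163KO. Rab20 was at 20.3 and 42.0 FPKM in WT and at 24.0 and 40.4 FPKM in CD163KO. Rab1b was at 95.5 and 124 FPKM in WT and at 19.5 and 107 FPKM in CD163KO, and Rab7b at 1.13 and 1.39 FPKM in WT and at 3.69 and 0.49 FPKM in CD163KO. The low Rab1b and the high Rab7b both came from the CD163KO MONO library, whose Y-linked counts are given above. In the same order of libraries the choroid plexus sum was 1338, 686, 513 and 1363 FPKM and the pituitary sum 1.39, 102.5, 2.18 and 2.16 FPKM, and their part in these values was not tested. Rab4a had 34 counts in the female WT MONO library. In male microglia Rab4a was at 5.75 FPKM in WT MONO and 3.11 FPKM in the high-share WT PFF library. In male CD163KO microglia it was at 4.6 FPKM in the excluded MONO library and 5.38 FPKM in PFF.

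**Figure D4:**
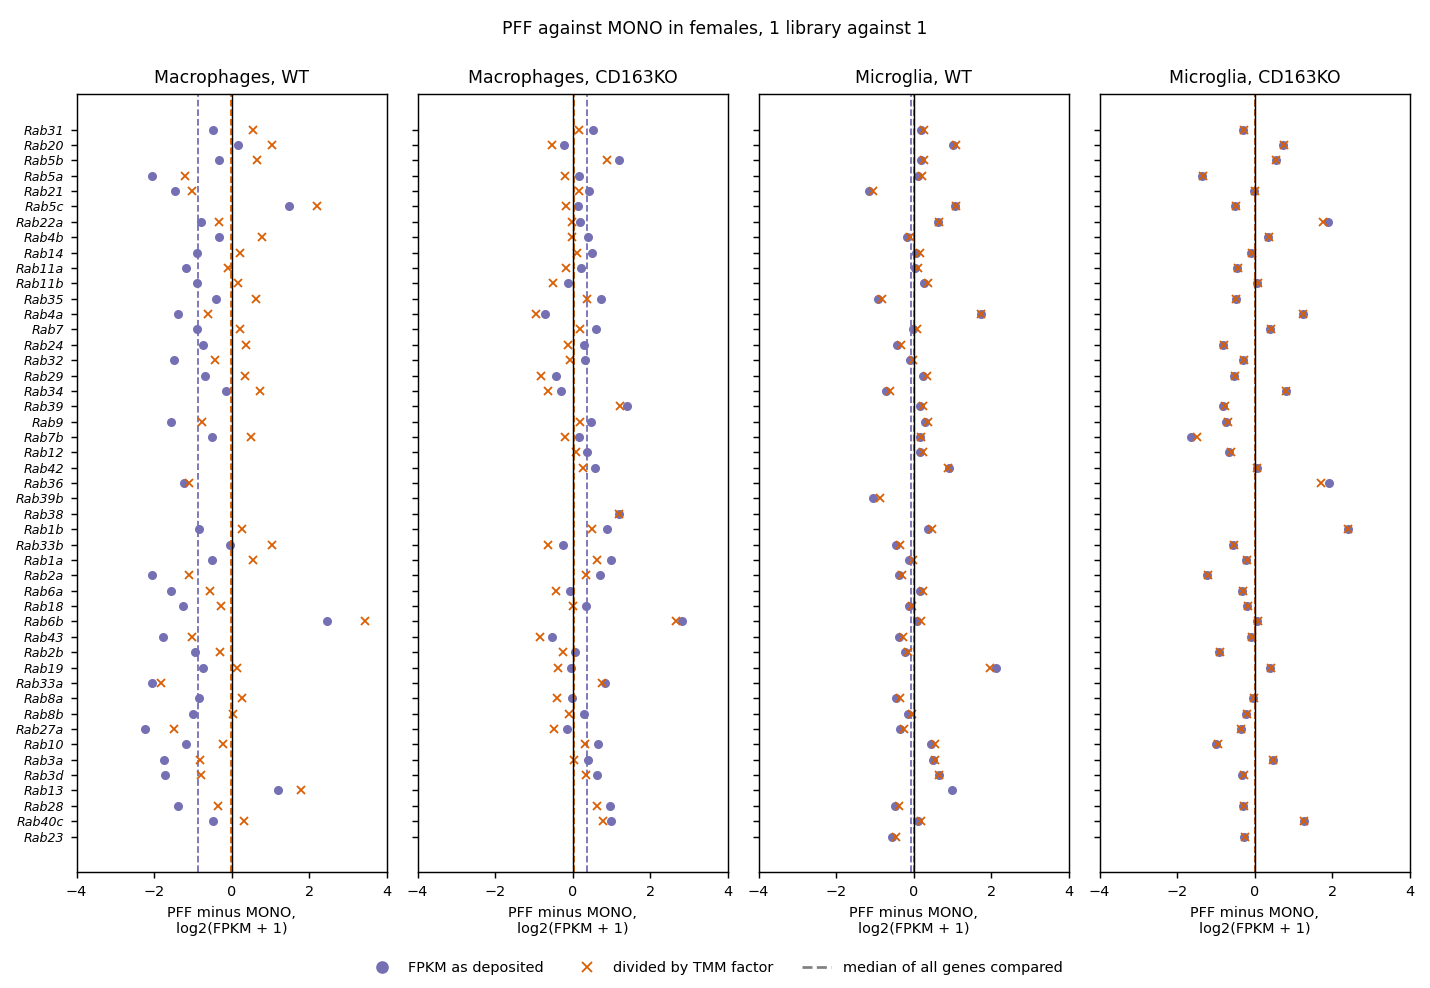
Log2(FPKM + 1) differences of PFF minus MONO for each Rab (rows) in female WT and CD163KO (KO) macrophages and microglia, 1 library against 1 in each panel, with circles for FPKM as deposited, crosses for FPKM divided by the TMM factor, and dashed lines at the median of all genes. In WT macrophages the Rabs are spread around a median of all genes of -0.87, and Rab6b stands to the right in both macrophage panels.

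Between genotypes at the same treatment, 18 of 44 Rabs were higher by the limit in CD163KO than in WT female PFF macrophages and 0 lower (32.2% and 2.48% of all genes), and 6 higher and 2 lower after TMM scaling (8.39% and 9.56%). In MONO macrophages 2 of 42 were higher and 9 lower (2.31% and 24.8%), and 2 of 43 higher and 5 lower after TMM scaling (6.77% and 11.7%). In PFF microglia 0 of 44 were higher and 2 lower (4.25% and 6.79%), or 0 and 1 after scaling (3.55% and 5.54%), and in MONO microglia 3 of 43 were higher and 3 lower (10.4% and 20.0%). These pairs share libraries with the treatment pairs above.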

How the data were processed

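Sorted brain macrophages and microglia were profiled by SMART-seq2, 1 library per condition. Per the submitters' processing notes the authors used Bowtie2, RSEM, DESeq2 and the mm10 build, whose versions and strand setting are not given in the sources used here. The authors deposited expected counts and FPKM for each transcript, as RSEM estimates them, in 1 table per library. Transcript rows were summed per symbol after matching 27627 of 27787 transcripts to RefSeq, and expected counts were rounded. The 57 Rabs, their roles and the lists of GEFs, GAPs and effectors were chosen with earlier results of these data known.

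The main test was edgeR 4.0.16 (R 4.3.3): TMM factors, filterByExpr, robust quasi-likelihood fits and Benjamini-Hochberg adjustment over all genes tested, with a call at an adjusted p of at most 0.05. SE was taken from the log2 difference and its F. Populations were compared with the combination of sex, genotype and treatment as a term, and the other factors were fitted additively within a population. The male CD163KO MONO libraries were left out of the main fits, as in the study. Alternatives were DESeq2 1.42.0, its size factors, no scaling factors, no filter, limma 3.58.1 on log2(FPKM + 1) or log2(FPKM + 0.1) for genes at 1 FPKM or more in at least 2 libraries, the excluded libraries, and each library or pair left out. Fits by the share of counts in the 10 most abundant transcripts (over or under 30%) and a fit without the matched term were added after the data were seen. The fits of the main comparisons were tested on simulated data.

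Values in every library are given for up to 3 called Rabs of each role with the largest difference, for the Rab of each role with the highest median, for the 3 called members of each machinery list with the largest difference, and for Rabs with the smallest p in the other comparisons. Correlations between Rabs are not given, because the libraries fall into 2 kinds. Rab17 and Rab44 were not analysed here. Reads of overlapping genes on opposite strands cannot be told apart.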

Additional observations from a re-analysis of the deposited data

Results flagged for a closer look

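Rab39 moved in opposite directions with genotype in the PFF females of the populations. In macrophages it was at 0.13 FPKM (8 counts) in WT and 3.95 FPKM (140 counts) in CD163KO, a log2(FPKM + 1) difference of 2.13 as deposited and 2.00 after TMM scaling. In microglia it was at 18.1 FPKM (852 counts) in WT and 6.07 FPKM (304 counts) in CD163KO, a difference of -1.44 and of -1.41 after scaling. Each difference rests on 1 library against 1 and was not tested by itself; over 14 libraries the interaction of genotype and population for Rab39 did not pass the test (edgeR adjusted p = 1). From WT to CD163KO in the same libraries, the summed FPKM of pituitary markers was 309 and 5.51 in macrophages and 102.5 and 2.16 in microglia, that of choroid plexus markers 2202 and 4427 and 686 and 1363, and that of border-associated macrophage markers 1991 and 5142 and 132 and 95.2. Their part in the Rab39 values was not tested. In MONO females Rab39 was at 0.69 and 0.86 FPKM in WT and CD163KO macrophages and at 16.1 and 11.5 FPKM in microglia. The male WT MONO macrophages held 3.84 FPKM, near the 3.95 FPKM of the female CD163KO PFF macrophages.

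The female CD163KO MONO microglia library held 799 counts of Y-linked genes, against at most 2 in the other 7 female libraries. Its Rab1b (19.5 FPKM) was the lowest and its Rab7b (3.69 FPKM) the highest of the 4 female microglia libraries. Without this library and its macrophage pair, 9 Rabs were called lower in microglia and 0 higher, the same counts as with them, while the share of all genes called went from 18.6% to 13.8%.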

How the results depend on the processing

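The 9 Rabs called between microglia and macrophages, all lower, became 14 (13 higher, 1 lower) without scaling factors, 19 (17 and 2) with limma on log2(FPKM + 1), 17 (16 and 1) with limma on log2(FPKM + 0.1) and 14 (13 and 1) with limma without a filter, where 46.2%, 53.0%, 53.8% and 29.0% of all genes were called in either direction. They became 5 without the count filter (13.9% of all genes called) and 19 with DESeq2 (5 higher, 14 lower, beside 18.2% and 16.3% of all genes). Within low-share libraries there were 15 (7 higher, 8 lower, beside 14.9% and 7.99%), or 12 without scaling factors (7 higher, 5 lower, beside 16.1% and 6.05%), and within high-share libraries without scaling factors 4 (1 higher, 3 lower, beside 5.83% and 6.58%). Leaving out each pair gave 7 to 21, with 21 without the male WT PFF pair, where 35.7% of all genes were called against 18.6% with all pairs. The 7 Rabs called higher within low-share libraries, such as Rab39 and Rab40c, had at most 1 count in the low-share macrophage libraries.

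Over the 14 libraries, signs turned for 7 of the 9 under the 4 settings without TMM or size factors, whereas within each kind of library all 9 stayed negative without scaling factors. Without scaling factors the log2 differences were 0.26 (Rab11a), 0.51 (Rab11b), 0.17 (Rab1b), 0.35 (Rab28), 0.45 (Rab32), 0.28 (Rab6a) and 0.11 (Rab7). With limma on log2(FPKM + 1), filtered or not, they were 0.17, 0.43, 0.0334, 0.15, 0.26, 0.0342 and 0.0388 in the same order, and with log2(FPKM + 0.1) they were 0.18, 0.45, 0.0245, 0.16, 0.27, 0.0426 and 0.0394. Rab6b for PFF against MONO in macrophages ran from -0.24, without the female WT PFF library, to 4.18 as each library was left out. Of 603 values of single Rabs, 542 kept direction and side of the threshold, 32 were no longer past it and 29 turned in sign. The counts for treatment, genotype, sex and interactions say nothing about stability, since these fits had little power to pass the threshold. The same holds for the side of the threshold of single Rab values from these fits. The median FPKM of each of the 57 Rabs moved by less than 1 SD with the excluded libraries. The populations were matched by condition, and 13 of 42 Rabs were called lower and 0 higher without that match, where 27.7% of all genes were called in either direction. No paired analysis by replicate number was possible because the labels give each condition 1 library.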
